A study of Mus musculus with 10 samples.

Results

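The oligos described here are the 208 DNA words of 8 bases (8-mers) that keep the half-site TTACG, and with it the central CpG, while the second half-site is altered. Each 8-mer was merged with its reverse complement, and the members are those with TTACG on either strand, without the 6 bases TTACGT or TGACGT on either strand. They are 208 of the 32896 8-mers scored. The base after the CpG is A in 48 of them, C in 48 and G in 48, and in 64 the word ends with TTACG. The members were chosen by sequence, but this set was proposed with the Z-scores of all 10 arrays in view, so the levels and counts below describe these arrays and support nothing beyond them.

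The study put bZIP DNA-binding domains, made as GST fusions from plasmids in a cell-free transcription and translation kit (PureExpress), on protein binding microarrays read in the Cy5 channel. Such an array carries short duplex DNA probes, here with a variable region of 35 bases in a design that places every short word in many contexts. There were 5 groups of 2 arrays. CREB1 was put on unmethylated DNA only. Each mutant, CEBPB(V285A) or CREB1(A297V), was put both on unmethylated arrays and on arrays treated for 3 h with M.SssI, which methylates cytosine where a G follows it. CREB1 and CEBPB are mouse proteins, and the names of the mutants give the substitution, valine to alanine in CEBPB and alanine to valine in CREB1. The series title asks whether the CEBPB mutant takes on preferences like those of CREB1. The domains lack the rest of each protein, and methylated arrays of CREB1 and arrays of wild-type CEBPB were not analysed here.

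The bZIP proteins bind DNA as dimers through a basic region and a leucine zipper. Each monomer reads the bases of a half-site from the major groove, and the dimer reads a short palindrome. CREB1 binds the cAMP response element (CRE), with the half-site TGACG. C/EBP proteins, which act in liver, fat and myeloid cells, bind palindromes with the half-site TTGCG. The half-site TTACG joined to its reverse complement forms the site of the PAR bZIP factors (DBP, TEF and HLF), known for output of the circadian clock in liver. Methylation of a CpG adds a methyl group that lies in the major groove, like that of thymine, so that methylated cytosine resembles thymine to a protein that reads this side.

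The sequences that carry most of the results are the PAR octamer and the 3 members made from it by changing base 6, the base after the CpG. A further member, with A at base 6 and C at base 7, is shown because its Z-score averaged over all groups was the highest among members with A after the CpG. TTACG is in capitals, and positions are counted from 1 at the first T. The last line gives aTTACGca, the member shifted by 1 base, which with TTACGcaa made up the highest pair of members with C after the CpG in every group.

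PAR octamer: TTACGTAA

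A at base 6: TTACGaaa

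C at base 6: TTACGcaa

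G at base 6: TTACGgaa

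A at base 6, C at base 7: TTACGaca

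C at base 6, shifted by 1 base: aTTACGca

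The array measures each word inside longer probes. One probe per octamer is printed 5′ to 3′ with the octamer in capitals. That of TTACGaca is the reverse complement of the strand listed in the deposited table.

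probe with TTACGaaa: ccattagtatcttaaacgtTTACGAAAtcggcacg

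probe with TTACGcaa: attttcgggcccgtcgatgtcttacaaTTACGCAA

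probe with TTACGgaa: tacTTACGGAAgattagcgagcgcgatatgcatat

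probe with TTACGaca: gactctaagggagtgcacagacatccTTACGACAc

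probe with the PAR octamer: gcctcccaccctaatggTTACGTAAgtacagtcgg

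The log2 signal of a probe is given relative to the median of the probes around it on the slide. The probe printed for TTACGcaa lay 4.02 log2 units above its surroundings on the unmethylated CEBPB(V285A) arrays and 5.36 on the methylated ones (means of 2 arrays). The same probe lay 0.79 above them with CREB1 and 0.84 with unmethylated CREB1(A297V). The probe of TTACGaaa reached 2.91 log2 units with methylated CREB1(A297V), its highest group, and 0.90 with CREB1, its lowest. The probe of TTACGgaa ranged from 0.47 to 0.58 over the 5 groups, unlike the median of the 34 probes of that octamer, which went from 0.31 and 0.21 on the CREB1 arrays to 1.10 and 1.02 on the methylated CEBPB(V285A) arrays.

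Each 8-mer was scored on each array by the median log2 signal over the probes that hold it (15 to 42 probes, median 34), and all 208 members could be scored. The Z-score is this median minus that of all 8-mers, divided by their robust spread on the same array, so 0 is the median 8-mer. The median spot signal of an array was 345 to 1857, and its median over background 1.79 to 5.10 times. Signal spread least with CREB1(A297V) on unmethylated DNA: the top 8-mer there was 2.79 and 2.68 log2 units over the median 8-mer, while the other 8 arrays reached 4.73 to 6.05. Between the 2 arrays of a group, a member's Z-score differed by a median of 0.244 to 0.839. The array identifier given with the deposited data is shared by the CREB1 and unmethylated CREB1(A297V) arrays, differs for the unmethylated CEBPB(V285A) arrays, and is another one for all 4 methylated arrays. Methylation, and the unmethylated comparisons of CEBPB(V285A), cannot be told apart from it. The methylated CREB1(A297V) arrays carried their probes at other positions than all other arrays, so comparisons with them cannot be told apart from these positions.

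Members bound above the median 8-mer in all 5 groups and below the words that hold the longer core TTACGT. The median Z-score of the 208 members was 1.84 and 2.14 on the CREB1 arrays, 2.75 and 2.55 with unmethylated CEBPB(V285A) and 1.52 and 2.15 with unmethylated CREB1(A297V). On methylated DNA it was 3.15 and 3.10 with CEBPB(V285A) and 3.40 and 4.11 with CREB1(A297V). The 48 words with TTACGT had group medians of 6.62, 8.63 and 3.94 in the 3 unmethylated groups in the same order, and 7.76 and 6.22 in the methylated ones. A mean Z-score of at least 3 was reached by 47 members with CREB1, where 2.69% of all 8-mers reached it. With unmethylated CEBPB(V285A) it was 91 members (3.5% of all 8-mers) and with unmethylated CREB1(A297V) 53 (1.68%). On methylated DNA 109 members reached it with CEBPB(V285A) (3.28%) and 132 with CREB1(A297V) (2.9%). Among the 100 highest 8-mers of a group there were 0 members with CREB1, 2 and 9 with unmethylated CEBPB(V285A) and CREB1(A297V), and 12 and 18 with the methylated ones. The members overlap as words and share probes, so they are not independent observations.

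The base after the CpG ordered the members, and the order of A and C differed between the proteins. Members with A, C and G after the CpG were matched in 48 contexts that differ in this base alone. A exceeded G on 10 of 10 arrays, with a median difference in Z of 0.832 to 2.47, and C exceeded G on 10 of 10, with 0.211 to 2.03. The difference of A minus C was -0.203 and -0.276 on the CREB1 arrays, -0.390 and -0.792 on the unmethylated and -0.431 and -0.629 on the methylated CEBPB(V285A) arrays. With CREB1(A297V) it was 0.523 and 0.363 unmethylated and 0.537 and 0.766 methylated. The median was thus above 0 on the 4 CREB1(A297V) arrays and below 0 on the other 6, and this split was the same under the 7 other ways of scoring. Within an array the contexts varied: A exceeded C in 17 to 35 of 48. T after the CpG, which makes the core TTACGT and so is no member, lay above A on 10 of 10 arrays, by 1.38 to 6.07.

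By class, members with G after the CpG were the weakest. Their median Z-score was 0.851 and 1.13 with CREB1, 1.61 and 1.63 with unmethylated CEBPB(V285A) and 1.06 and 1.53 with unmethylated CREB1(A297V). The methylated arrays gave 1.63 and 1.98 and 1.68 and 2.13 in the same order of mutants. The class with A gave 1.77 and 2.40, 2.82 and 2.48 and 1.93 and 2.69 on the unmethylated arrays of CREB1, CEBPB(V285A) and CREB1(A297V), and 3.47 and 3.27 and 4.18 and 4.86 on the methylated ones. The class with C gave 1.92 and 2.64, 3.03 and 2.87 and 1.23 and 1.87, then 3.97 and 3.99 and 3.60 and 4.52. The 2 arrays of unmethylated CREB1(A297V) differed by about as much as the classes with A and C did there. Words that end with TTACG gave 2.25 and 2.79, 3.50 and 3.31 and 1.87 and 2.56, then 3.87 and 3.91 and 3.50 and 4.15. In these words the probe decides what follows, and it can restore TTACGT. Without the probes that hold TTACGT or TGACGT anywhere, their median fell on each of the 10 arrays. The fall was largest on unmethylated CEBPB(V285A) array 1, from 3.50 to 2.30, and smallest on methylated CREB1(A297V) array 1, from 3.50 to 3.28, with a median of 26 probes left per word.

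TTACGcaa was the member that set CEBPB(V285A) apart. Read on the other strand it is TTGCGTAA, a TTACG half-site joined to a C/EBP half-site. It scored 5.05 and 6.42 on the 2 CREB1 arrays, 18.6 and 16.2 on the unmethylated CEBPB(V285A) arrays and 7.33 and 10.4 on the unmethylated CREB1(A297V) arrays. On methylated DNA it scored 18.2 and 17.3 for CEBPB(V285A) and 14.4 and 16.5 for CREB1(A297V). All 4 CEBPB(V285A) arrays lay above the other unmethylated arrays, and the methylated CREB1(A297V) arrays overlapped the unmethylated CEBPB(V285A) arrays. Among all 8-mers its mean Z-score ranked 233 with CREB1, 10 and 15 with unmethylated CEBPB(V285A) and CREB1(A297V), and 5 and 14 with the methylated ones. The median signal of its probes was 11.6 times that of the median 8-mer with unmethylated CEBPB(V285A), 1.86 times with CREB1 and 2.16 times with unmethylated CREB1(A297V). Signal at least 2-fold above the surrounding probes was seen for 33 and 33 of its 35 probes on the unmethylated CEBPB(V285A) arrays and 15 and 17 on the CREB1 arrays.

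TTACGaaa and TTACGaca had the opposite order of the mutants. TTACGaaa scored 4.41 and 5.25 on the 2 CREB1 arrays, 6.98 and 6.35 on the unmethylated CEBPB(V285A) arrays and 8.89 and 10.9 on the unmethylated CREB1(A297V) arrays. On methylated DNA it scored 6.68 and 8.18 for CEBPB(V285A) and 13.7 and 18.6 for CREB1(A297V). The CREB1(A297V) arrays were the highest in both states of the DNA, with no overlap with CEBPB(V285A) in the same state. TTACGaca scored 6.98 and 8.60 on the 2 CREB1 arrays, 9.43 and 8.78 on the unmethylated CEBPB(V285A) arrays and 12.3 and 17.5 on the unmethylated CREB1(A297V) arrays, and 10.1 and 9.94 for CEBPB(V285A) and 16.3 and 22.5 for CREB1(A297V) on methylated DNA. It was the highest member with CREB1 (rank 133 of all 8-mers) and with CREB1(A297V) in both states (ranks 3 and 5), and ranked 132 and 42 with CEBPB(V285A). At least 2-fold signal was seen for 33 and 33 of its 34 probes on the methylated CREB1(A297V) arrays and 19 and 21 on the CREB1 arrays.

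TTACGgaa scored lowest of the 3 base 6 changes on each of the 10 arrays. It scored 1.83 and 1.52 on the 2 CREB1 arrays, 3.22 and 3.23 on the unmethylated CEBPB(V285A) arrays and 2.59 and 2.90 on the unmethylated CREB1(A297V) arrays, and 4.42 and 3.93 for CEBPB(V285A) and 3.91 and 5.10 for CREB1(A297V) on methylated DNA. Of its 34 probes, 2 and 2 reached 2-fold signal on the CREB1 arrays, 9 and 10 and 1 and 1 on the unmethylated CEBPB(V285A) and CREB1(A297V) arrays, and 18 and 18 and 13 and 16 on the methylated ones. The PAR octamer TTACGTAA, measured in the same way, had mean Z-scores of 15.4 ± 0.820 with CREB1, 25.5 ± 0.0367 and 21.6 ± 3.47 with unmethylated CEBPB(V285A) and CREB1(A297V), and 22.3 ± 2.32 and 26.6 ± 2.54 with the methylated ones (SD, n = 2). Beside it, TTACGcaa reached 17.7 ± 0.623 with methylated CEBPB(V285A) and TTACGaca 19.4 ± 4.37 with methylated CREB1(A297V). The lowest members by class, averaged over all arrays, were TTACGagc, tTTACGct, TTACGgcc and gctTTACG. TTACGgcc scored -0.364 and 0.157 with CREB1 and 0.256 and 0.454 with methylated CREB1(A297V), and gctTTACG 0.151 and 1.00 and 1.95 and 2.14.

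The base in front of TTACG, which the choice of members leaves free, separated the members on every array. A in front gave the highest mean Z-score on 10 of 10 arrays in each of the 4 classes. Over the 12 members per base with A, C or G after the CpG and a single base in front, A in front averaged 2.80 and 3.57 on the CREB1 arrays and 7.19 and 8.90 on the methylated CREB1(A297V) arrays. T in front, the lowest base on 10 of 10 arrays there, averaged 1.15 and 1.60 and 2.34 and 2.83. With unmethylated CEBPB(V285A) the means were 5.32 and 5.06 for A and 1.54 and 1.40 for T. At the level of probes, A in front was not highest throughout. For TTACGaaa with CREB1 it had the lowest median log2 signal of the 4 bases, 0.758 against 0.798 to 0.826. TTACGcaa with methylated CEBPB(V285A) had 6.14 with G in front and 5.49 with A. A in front was highest for TTACGgaa with methylated CREB1(A297V), but C and not T was lowest. Its median log2 signal was 1.82 with A in front, 1.15 with G, 0.72 with T and 0.44 with C (8 to 10 probes each).

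The altered second half-site kept some order of its own. In members that start with TTACG, A at base 8 gave the highest mean on 10 of 10 arrays in the classes with A and C at base 6, and on 9 of 10 with G. At base 7 the classes differed. A was highest on 10 of 10 arrays after C at base 6, which is the base of TTACGcaa. After A at base 6, C at base 7 was highest on 8 of 10 arrays, which is the base of TTACGaca. With G at base 6, T at base 7 was highest on 7 of 10 arrays. Each of these means covers 4 words. The base that follows the octamer also separated probes of TTACGcaa. With unmethylated CEBPB(V285A) their median log2 signal was 5.02 with C after it and 1.91 with A after it (8 probes each).

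To see what the half-site itself contributed, each member was set against the same word with TTACG changed at 1 base. TGACG in its place, the CRE half-site, was the better half-site for CREB1. The member minus the changed word had a median Z difference of -2.83 and -4.06 on the CREB1 arrays, with the member higher in 18 and 10 of 208 words. It was -2.80 and -2.45 with unmethylated and -0.328 and -0.280 with methylated CEBPB(V285A). With CREB1(A297V) the sign was the other way, 0.905 and 0.806 unmethylated and 1.53 and 2.48 methylated. Altogether 4 of 10 arrays preferred TTACG in these words, all of them with CREB1(A297V), and the same 4 of 10 held in each class by the base after the CpG.

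Changing TTACG to TTGCG, the C/EBP half-site, lowered the score on 10 of 10 arrays, by a median of 1.57 to 3.77, CEBPB(V285A) arrays included. Changing the CpG to TpG (TTATG) lowered it on 10 of 10 arrays as well. The median difference was 1.18 and 1.61 with CREB1, 1.49 and 1.50 and 0.864 and 1.55 with unmethylated CEBPB(V285A) and CREB1(A297V), and 1.46 and 1.54 and 2.79 and 3.33 with the methylated ones. On the methylated CREB1(A297V) arrays the member was higher in 208 and 208 of 208 words. Changing the CpG to CpA (TTACA) separated the proteins. The member exceeded the changed word by 0.669 and 1.17 with CREB1 and 1.02 and 1.08 with unmethylated CEBPB(V285A). It was lower with CREB1(A297V), at -1.06 and -1.13 unmethylated and -0.545 and -0.575 methylated. The methylated CREB1(A297V) medians varied by class. They were -1.51 and -2.35 with C after the CpG, -0.447 and -0.662 with G and -0.179 and -0.154 with A. Words that end with TTACG gave -0.0557 and -0.0955, with the member higher in 31 and 28 of 64.

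Single words differed from these medians. In the context of TTACGcaa, the change to TTATGcaa kept much of the binding with CEBPB(V285A), at 14.1 and 14.5 unmethylated and 15.3 and 14.4 methylated. With CREB1 that word scored 1.44 and 1.72 and with CREB1(A297V) 2.27 and 3.38 unmethylated and 3.00 and 4.16 methylated. TTATGcaa holds no CpG, and its other strand begins with TTGCA. The CEBPB(V285A) arrays all lay above the others for this word, and by more than for TTACGcaa on the methylated arrays. TTGCGcaa, the C/EBP palindrome, scored 15.6 and 16.8 with unmethylated CEBPB(V285A), 2.09 and 2.62 with CREB1 and 1.08 and 3.16 with unmethylated CREB1(A297V).

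Differences between groups were taken from 1 limma fit over all 8-mers and 10 arrays, with an 8-mer called at an adjusted p below 0.05 over all 8-mers. Comparisons that use the same arrays are not independent of each other. CEBPB(V285A) against CREB1 on unmethylated DNA asks how the mutant differs from the factor it was compared with. 35 of 208 members were called higher and 0 lower, against 3.67% and 2.53% of all 8-mers, and the median difference in Z was 0.839 (161 of 208 above 0). Before adjustment, 89 members were higher and 8 lower at p below 0.05. By class, 3 of 48 members with A after the CpG were higher, 11 of 48 with C, 11 of 48 with G and 10 of 64 that end with TTACG. The largest called difference was that of TTACGcaa, 11.6 ± 2.60 (SE, adjusted p = 0.0128). Next came taTTACGc at 5.34 ± 1.04 (adjusted p = 0.00558). The latter scored 10.2 and 8.73 with CEBPB(V285A) and 3.26 and 4.97 with CREB1. None of the 40 members with a T in front of TTACG was called, against 15 of 40 with G, 8 with A and 4 with C. The count was 11 without CREB1 array 1, 2 without unmethylated CEBPB(V285A) array 1, 4 without unmethylated CEBPB(V285A) array 2, 54 without unmethylated CREB1(A297V) array 1 and 55 without unmethylated CREB1(A297V) array 2. With centred log2 scores 117 higher and 0 lower were called, and with quantile normalization 22 higher and 1. Called higher and lower were 10 and 2 with normexp background correction. The call of TTACGcaa was lost without any 1 of the 4 arrays compared (differences of 10.4 to 12.9 with an array left out), and that of taTTACGc without CREB1 array 1 or unmethylated CEBPB(V285A) array 1 (4.48 to 6.19).

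CREB1(A297V) against CREB1, which share an array identifier, gave few calls among the members. 3 of 208 members were called higher and 9 lower, against 8.13% and 10.8% of all 8-mers, both shares below the background, and the median difference was -0.0389. TTACGaaa was higher by 5.05 ± 1.51 (SE, adjusted p = 0.0254), and TTACGata by 2.18 ± 0.645 (adjusted p = 0.0237). TTACGata scored 1.87 and 2.45 with CREB1 and 3.32 and 5.36 with CREB1(A297V). The difference of TTACGaca, 7.15 ± 2.55, missed the threshold (adjusted p = 0.0566, and 0.0126 in a fit without the variance trend). The members called lower were mostly of the class with C after the CpG, 6 of 48. This share, 12.5%, is near the 10.8% of all 8-mers called lower. TTACGcgt differed by -2.33 ± 0.605 (adjusted p = 0.0113) and cgTTACGc by -2.10 ± 0.596. Both hold a further CG, as do 22 of the 208 members. Of these 22, 4 were called lower and 20 had a difference below 0, against 86 of the 186 members with a single CG. The count of calls was 0 without CREB1 array 2. The calls split into 0 higher and 12 lower with centred log2 scores, 11 higher and 18 with quantile normalization and 0 higher and 7 with the authors' deposited scores, and numbered 28 with normexp and 24 without the variance trend. The call of TTACGaaa was lost without either CREB1 array, either unmethylated CEBPB(V285A) array, unmethylated CREB1(A297V) array 2 or methylated CEBPB(V285A) array 1 (differences of 4.06 to 6.03 with an array left out), that of TTACGata without either CREB1 array or unmethylated CREB1(A297V) array 2 (1.16 to 3.19), that of TTACGcgt without CREB1 array 2 or unmethylated CREB1(A297V) array 1 (-3.09 to -1.56) and that of cgTTACGc without CREB1 array 2 or unmethylated CREB1(A297V) array 1 (-2.65 to -1.55).

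Set directly against each other on unmethylated DNA, CEBPB(V285A) bound more members more strongly than CREB1(A297V). 68 of 208 members were called higher and 6 lower, against 14.1% and 11.5% of all 8-mers. The higher ones were 26 of 48 members with C after the CpG, 24 of 64 that end with TTACG, 10 of 48 with G and 8 of 48 with A. TTACGcaa differed by 8.54 ± 2.60 (SE, adjusted p = 0.0214) and gTTACGca by 5.98 ± 0.954 (adjusted p = 0.000197). gTTACGca scored 9.40 and 9.97 with CEBPB(V285A), 2.83 and 4.59 with CREB1(A297V) and 4.95 and 5.36 with CREB1, without overlap between the mutants. Called lower with CEBPB(V285A) were, among others, TTACGata, with a difference of -1.99 ± 0.645, and aatTTACG, with -1.50 ± 0.324. TTACGaca and TTACGaaa lay lower still, at -5.84 ± 2.55 and -3.21 ± 1.51, and were not called (adjusted p = 0.0993 and 0.127). All 22 members with 2 or more CG had a difference above 0 here, and 14 of them were called. Of the 186 members with a single CG, 144 had a difference above 0, and 54 were called higher and 6 lower. With normexp background correction 33 higher and 10 lower were called, and with centred log2 scores 142 higher and 0. The count was 30 without unmethylated CEBPB(V285A) array 1, 37 without unmethylated CEBPB(V285A) array 2 and 37 without unmethylated CREB1(A297V) array 1, and the call of TTACGcaa was lost without either unmethylated CEBPB(V285A) array or unmethylated CREB1(A297V) array 1 (differences of 7.02 to 10.1), and that of TTACGata without either unmethylated CEBPB(V285A) array or unmethylated CREB1(A297V) array 2 (-3.01 to -0.972).

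Between methylated and unmethylated DNA, more members were called with CREB1(A297V) than with CEBPB(V285A). With CREB1(A297V), 163 of 208 members were called higher and 2 lower, against 10.4% and 11.1% of all 8-mers. The size of this contrast varied with scaling: 197 members were called with CREB1(A297V) and 124 with CEBPB(V285A) on centred log2 scores, and 76 and 14 after normexp background correction. The median difference was 1.98, and 204 of 208 members lay above 0. By class, 46 of 48 with A after the CpG rose, 41 of 48 with C, 21 of 48 with G and 55 of 64 that end with TTACG. aTTACGca rose from 5.43 and 8.74 on the unmethylated to 12.9 and 17.3 on the methylated arrays, a difference of 8.03 ± 1.88 (SE, adjusted p = 0.00587). taaTTACG rose from 4.51 and 7.62 to 11.9 and 14.8, by 7.30 ± 1.18 (adjusted p = 0.000439), and TTACGaaa by 6.31 ± 1.51 (adjusted p = 0.00679). The groups did not overlap for any of these 3 words. Members with A in front of TTACG rose most, by a median of 4.22 with 39 of 40 called, and those with T least, by 1.20 with 25 of 40 called.

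The 2 members that fell, TTACGggc by 1.15 ± 0.321 and tTTACGgg by 0.747 ± 0.263 in Z, both have G after the CpG and a further G behind it. They scored 2.76 and 2.55 and 1.20 and 0.874 on the unmethylated arrays, and with the authors' deposited scores both differences had the other sign. Words without a CG, which M.SssI does not change within the word, were called too: of 650 words with TTAC and no CG, 240 were higher and 21 lower, with a median difference of 0.775. Of the 208 words with TGACG and an altered second half-site, 19 were higher, and of the 48 words with TTACGT 22. Signal spread least on the unmethylated arrays of this protein, and the methylated ones carried their probes at other positions, whose part in the result was not tested. The count was 104 without unmethylated CREB1(A297V) array 1 and 77 without methylated CREB1(A297V) array 2, and the call of aTTACGca was lost without methylated CREB1(A297V) array 2 (differences of 5.86 to 10.2 with an array left out), that of TTACGaaa without methylated CREB1(A297V) array 2 (3.87 to 8.75), that of TTACGggc without unmethylated CREB1(A297V) array 1 or either methylated CREB1(A297V) array (-1.25 to -1.04), and that of tTTACGgg without either unmethylated CEBPB(V285A) array, unmethylated CREB1(A297V) array 1, either methylated CEBPB(V285A) array or either methylated CREB1(A297V) array (-0.907 to -0.586).

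With CEBPB(V285A), fewer members were called between methylated and unmethylated DNA. 13 of 208 members (6.25%) were called higher and 0 lower, against 3.84% and 3.73% of all 8-mers, with a median difference of 0.344. Words without a CG were called about as often: of the 650 with TTAC and no CG, 43 (6.62%) were higher and 0 lower. Their median difference was 0.419. Before adjustment, 37 members were higher and 8 lower at p below 0.05. gTTACGcg went from 2.85 and 2.53 to 5.58 and 6.19, a difference of 3.20 ± 0.526 (SE, adjusted p = 0.00246), and kept its call without any 1 array. caTTACGa rose by 2.67 ± 0.615 and TTACGcgt by 2.34 ± 0.605 (adjusted p = 0.0147 and 0.025). Of these, gTTACGcg and TTACGcgt hold 2 CG, and 2 of the 13 calls were of such words. TTACGcaa, the strongest member with this protein, differed by 0.336 ± 2.60 and was not called (adjusted p = 0.952). With centred log2 scores the count was 124 (121 higher and 3 lower), with the deposited scores 21 and without the window 1. With quantile normalization 3 higher and 1 lower were called. The count was 1 without unmethylated CEBPB(V285A) array 1, 1 without unmethylated CEBPB(V285A) array 2, 22 without unmethylated CREB1(A297V) array 1, 23 without unmethylated CREB1(A297V) array 2, 1 without methylated CEBPB(V285A) array 1 and 2 without methylated CEBPB(V285A) array 2. The calls of caTTACGa and TTACGcgt were lost without any 1 of the 4 CEBPB(V285A) arrays, with differences of 2.62 to 2.72 and 2.16 to 2.52.

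On methylated DNA, where both mutants share an array identifier, CREB1(A297V) scored higher than CEBPB(V285A) on most called members. The methylated CREB1(A297V) arrays carried their probes at other positions than the methylated CEBPB(V285A) arrays. The mutant and these positions cannot be told apart here. 9 of 208 members were called higher and 62 lower, against 6.75% and 5.49% of all 8-mers, as CEBPB(V285A) minus CREB1(A297V). The median difference of the members was -0.766. This was not particular to words with a CpG: of the 650 words with TTAC and no CG, 393 were lower and 7 higher. Their median was -1.33. Of the 208 words with TGACG and an altered second half-site, 88 were higher and 2 lower. Lower were 25 of 48 members with A after the CpG, 12 of 48 with G, 17 of 64 that end with TTACG and 8 of 48 with C. TTACGaca differed by -9.34 ± 2.55 (SE, adjusted p = 0.0215), TTACGaaa by -8.76 ± 1.51 (adjusted p = 0.000825) and taaTTACG by -6.49 ± 1.18 (adjusted p = 0.00124). taaTTACG scored 7.06 and 6.69 with CEBPB(V285A) and 11.9 and 14.8 with CREB1(A297V). Higher with CEBPB(V285A) were gTTACGcg, by 2.83 ± 0.526, and TTACGcgt, by 2.41 ± 0.605. TTACGcaa, apart by 8.54 ± 2.60 on unmethylated DNA, differed by 2.28 ± 2.60 here and was not called (adjusted p = 0.623). Members with T in front of TTACG had 25 of 40 called lower, and those with G in front had 1 lower and 6 higher.

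The split of higher against lower calls in this comparison depended on scaling. With log2 scores centred on the median but not divided by the spread, 56 members were higher and 47 lower, and with normexp background correction 14 and 19. With the authors' deposited scores 19 higher and 48 lower were called, and without the window 6 higher and 41. The count was 24 without methylated CEBPB(V285A) array 1, 22 without methylated CEBPB(V285A) array 2 and 16 without methylated CREB1(A297V) array 2. The call of TTACGaca was lost without either unmethylated CEBPB(V285A) array, either methylated CEBPB(V285A) array or methylated CREB1(A297V) array 2 (differences of -12.4 to -6.25 with an array left out), and that of TTACGcgt without either methylated CEBPB(V285A) array or either methylated CREB1(A297V) array (2.11 to 2.72).

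The difference between the mutants in their response to methylation was tested as an interaction. It uses the methylated CREB1(A297V) arrays, whose probes lay at other positions, and the part of these positions was not tested. 0 of 208 members were called higher and 30 lower, against 1.42% and 1.64% of all 8-mers, as the response of CEBPB(V285A) minus that of CREB1(A297V). Members with C after the CpG gave 9 of these calls, A 7, G 4 and words that end with TTACG 10. The median was -1.57, with all but 9 of 208 members below 0. Of the 208 words with TGACG and an altered second half-site, 66 were lower and 0 higher, with a median of -2.58. The 48 words with TTACGT had 3 lower and 0 higher, with a median of -2.59. The words with TGACG differed from the members in the separate responses. With CEBPB(V285A), 84 of them were lower on methylated DNA and 0 higher (median -1.73), against 0 and 13 members (median 0.344). With CREB1(A297V), 19 of them were higher and 0 lower (median 0.863), against 163 and 2 members (median 1.98). Before adjustment, 119 members were lower and 0 higher in the interaction at p below 0.05. taaTTACG had -7.26 ± 1.66 (SE, adjusted p = 0.0254) and tcaTTACG -7.08 ± 1.37 (adjusted p = 0.0157). tcaTTACG went from 7.52 and 8.75 to 7.20 and 7.10 with CEBPB(V285A) and from 3.36 and 4.46 to 10.6 and 9.40 with CREB1(A297V). The count was 3 with normexp background correction, 15 with quantile normalization, 81 with centred log2 scores, 47 without the variance trend and 48 with a replicate block. It also rests on single arrays: it was 49 without CREB1 array 1, 51 without CREB1 array 2, 1 without unmethylated CEBPB(V285A) array 1, 5 without unmethylated CEBPB(V285A) array 2, 13 without unmethylated CREB1(A297V) array 1, 84 without unmethylated CREB1(A297V) array 2, 0 without methylated CEBPB(V285A) array 1, 2 without methylated CEBPB(V285A) array 2, 4 without methylated CREB1(A297V) array 1 and 1 without methylated CREB1(A297V) array 2. The calls of tcaTTACG and taaTTACG were lost without either unmethylated CEBPB(V285A) array, either methylated CEBPB(V285A) array or either methylated CREB1(A297V) array, with differences of -7.70 to -6.47 and -8.82 to -5.71.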

How the data were processed

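Binding was measured on 10 arrays in 5 groups of 2. The authors deposited, per the file headers, a linear median intensity and median background per spot for each array, not background-subtracted, and a matrix with a Z-score per 8-mer, a score whose steps are not given in the sources used here. It served as an alternative (Spearman correlation with the main score 0.783 to 0.953 per array, across 8-mers, which are not independent).

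From the intensity, log2 signal was lowered by its median over 15 by 15 spots. The median over the probes holding an 8-mer (at least 8 required) was centred on the median of all 32896 8-mers and divided by 1.4826 times their median absolute deviation. Differences were fitted with limma 3.58.1 in R 4.3.3 (lmFit, eBayes with a variance trend, 5 residual degrees of freedom), two-sided, with Benjamini-Hochberg adjustment over all 8-mers in each of 7 comparisons. At the strongest 8-mers the trend expects a large spread, so a missing call there carries little information. The labels do not say that replicate arrays are separate preparations, so the spread behind the p-values is that between arrays and may be technical. The number of arrays limits the precision.

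Named are the members with base 6 of the PAR octamer changed, the highest and lowest of each class, and the largest called differences. TTACGcaa, TTACGaca and TTACGaaa in comparisons where they were not called, and the probe shown per octamer, were added after the values were seen. The members and lists were chosen with earlier results of these data known. The fit and the scoring were tested on simulated data. Alternatives were no variance trend, centred log2 scores, normexp (offset 50), quantile normalization, the deposited scores, a replicate block, no window, dim spots or those at 65000 or more left out, probes with a full site left out, and each array left out.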

Additional observations from a re-analysis of the deposited data

Results flagged for a closer look

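The response to methylation differed between the mutants by a test of the interaction for 30 members, all of them lower for CEBPB(V285A) than for CREB1(A297V). A negative interaction was not particular to the members: 66 of the 208 words with TGACG and an altered second half-site were called lower too. The responses behind it differed. With CEBPB(V285A), 84 of those words were lower on methylated DNA and 0 higher, against 0 members lower and 13 higher. With CREB1(A297V), 19 of those words were higher, against 163 members. Among the called members the largest differences in the interaction were those of taaTTACG, at -7.26 in Z, and tcaTTACG, at -7.08. The largest of all members, that of aTTACGca at -8.20 ± 2.66 (SE), was not called (adjusted p = 0.0905). Leaving out 1 array gave counts of 0 to 84, and other settings 3 (normexp) to 81 (centred log2 scores).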

How the results depend on the processing

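The comparisons are numbered 1 to 7: CEBPB(V285A) against CREB1, then CREB1(A297V) against it, the mutants unmethylated, methylation with CEBPB(V285A), methylation with CREB1(A297V), the mutants methylated, and the interaction. Their counts of called members were 35, 12, 74, 13, 165, 71 and 30. Counts that moved by more than 1.5 times were 117, 142, 124 and 81 with centred log2 scores (comparisons 1, 3, 4 and 7). With normexp they were 12, 28, 43, 76, 33 and 3 (all but 4), and with quantile normalization 23, 29, 4 and 15 (1, 2, 4 and 7). Without the window they were 1 and 47 (4 and 6), with the deposited scores 7 and 21 (2 and 4), and without the variance trend 24 and 47 (2 and 7). The count of comparison 7 with a replicate block, given below, moved by more than 1.5 times as well. The causes were not tested. Leaving out 1 array gave 2 to 55, 0 to 16, 30 to 88, 1 to 23, 77 to 174, 16 to 88 and 0 to 84. The order of A, C and G after the CpG kept its number of arrays under the 7 other scorings. Under the other settings of scoring and fit, the largest single differences of each comparison kept direction and side of the threshold in 192 cases and missed the threshold in 58. These cases do not include the fits with an array left out. In 2 the sign turned, both for methylation with CREB1(A297V) and the deposited scores: tTTACGgg at 0.368 and TTACGggc at 0.488.

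Arrays with the same replicate number deviated together in some pairs of groups: 2 of 10 pairs had a correlation of deviations over 0.1 (-0.213 to 0.333). The highest was that of CREB1 with unmethylated CREB1(A297V). The other was that of the 2 CREB1(A297V) groups, at 0.163. Deviations also ran in opposite directions, at -0.213 for CREB1 with unmethylated CEBPB(V285A) and -0.138 for the unmethylated mutants. With a replicate block the counts were 41, 13, 76, 17, 169, 82 and 48. Signal over background, lowest at 1.79 on unmethylated CREB1(A297V) array 2, limits what weak members can show. It was 2.76 on unmethylated CREB1(A297V) array 1, and 5.09 and 5.03 on the methylated arrays of this protein. The part of this difference in its methylation comparison was not tested.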
